A study of Mus musculus with 6 samples.

Results

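Levels of 36 germline and pluripotency genes were followed in 3T3 cells, a fibroblast line established from mouse embryos. The 36 genes are a hand-written list of meiotic, piRNA pathway, spermatid and embryonic stem cell genes that are known to be held silent in somatic cells, and they were found by symbol among 35275 genes, whether or not they had reads. The cells carried either a control construct (Ctrl) or a construct for overexpression of nicotinamide N-methyltransferase (NNMT), an enzyme that transfers a methyl group from S-adenosylmethionine to nicotinamide. Both groups had 3 RNA-seq libraries, labelled as biological replicates, from cells kept for 48 h in DMEM without its own methionine, to which 10 µM methionine and 10% dialyzed serum were added. The cells are otherwise called normal, and both groups share the same medium. The sources used here do not give the promoter of the construct, the species of its Nnmt, or whether a group is 1 clone, 1 transduced population or several. The p-values below therefore measure the spread between these libraries, and a difference between 2 starting populations cannot be told apart from an effect of the construct. DNA methylation was not measured, so silencing by methylation is background for these genes and not an observation.

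Many germline genes have CpG-rich promoters that gain DNA methylation around implantation and keep it in somatic tissues through the maintenance methyltransferase DNMT1 and its partner UHRF1. A second layer is the variant Polycomb complex PRC1.6, which reaches such promoters through E2F6 and through MGA with MAX, which bind E2F-type and E-box motifs. S-adenosylmethionine, which NNMT consumes, is the methyl donor of DNA and histone methyltransferases. The comparison therefore asks whether genes kept off in this way differ in cells with the NNMT construct.

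Most of the 36 genes were off in both groups, and the ones with signal did not move together. Of the 36, 18 were listed at 0 in all 6 libraries, 12 had reads but stayed under 0.1 FPKM in both groups, and 6 reached at least 0.1 FPKM in a group (FPKM, reads scaled to transcript length and to the size of the library). The homeobox gene Rhox5 fell from 88.2 to 1.48 FPKM. The pluripotency factor Nanog, the TFIID-related Taf7l and the testis bromodomain gene Brdt rose, each from under 1 FPKM and, in the group means, to under 1 FPKM. The synaptonemal complex genes Sycp1 and Sycp2 did not pass the test. In the control cells Rhox5 lay above 94.6% of tested genes, which goes against the description of the list as silenced genes, while the other 35 stayed under 1 FPKM in both group means.

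The test was limma on log2(FPKM + 0.1) on the 13962 genes whose mean across the 6 libraries reached 0.1 FPKM, with p adjusted by Benjamini-Hochberg and called under 0.05. Differences are NNMT minus Ctrl on that log2 scale, which understates the change of low genes, and n = 3 per group for each mean ± SD. In this comparison 58% of tested genes were called, 31.9% higher and 26.1% lower in NNMT. Of the 6 members tested, 4 were called (66.7%), 3 higher and 1 lower, which is near the share among all genes. The groups did not overlap for 5 of the 6, against 64.1% of all tested genes. The median difference was 0.61 for the 6 and 0.04 for all genes. Nanog passed the filter only through its level in the NNMT libraries, so it had to differ, and these counts are no support for a shift of the list. The other 30 members were too low to be tested. With a filter of 1 FPKM, which left 10882 genes of which 65.5% were called, Rhox5 was the only member tested.

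Between 31620289 and 39980062 reads per library were recovered from the deposited values, so that 1 read on a 1 kb transcript equalled 0.0250 to 0.0316 FPKM. Across tested genes, Pearson's r was 0.992 to 0.994 within a group and 0.962 to 0.966 between groups. Nnmt was 6.45 ± 1.18 FPKM in control and 16.3 ± 1.70 FPKM in NNMT cells, 2.53-fold higher (log2 difference 1.34, SE 0.125, limma adjusted p = 2.16e-05). The sex chromosomes stood apart. On X, 344 of 457 tested genes fell and 16 rose (median difference -0.75), 9 of 10 tested genes annotated on Y rose (median 3.65), and the median elsewhere was 0.06. All 12 fibroblast markers were tested, 6 higher and 4 lower, and their summed level was 8459 to 8754 FPKM in control and 10766 to 12287 FPKM in NNMT libraries. The cells of both groups thus had the markers of their label.

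**Figure D1:**
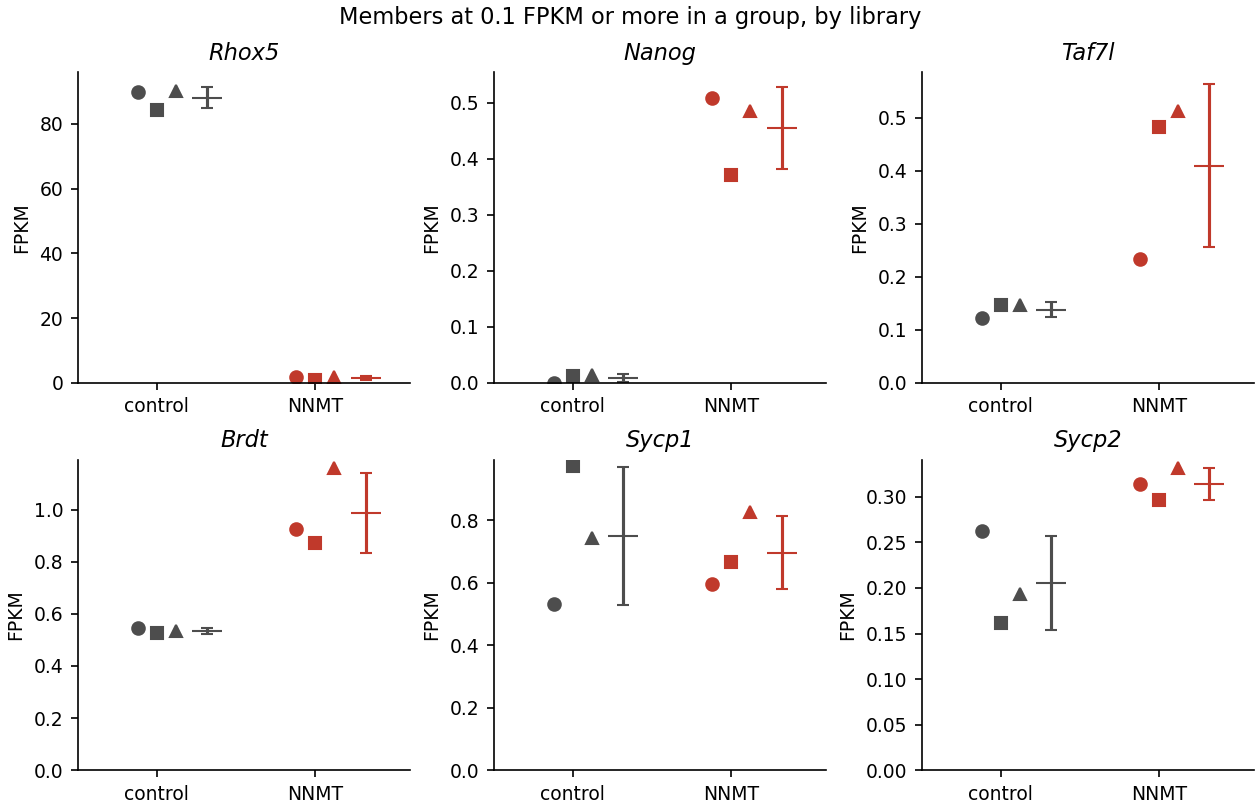
Level in FPKM (vertical axes, each on its own linear scale) of the 6 members that reached at least 0.1 FPKM in a group, in the 3 control and 3 NNMT libraries. Points are libraries (circle for replicate 1 or the unnumbered NNMT library, square for 2, triangle for 3) and bars are mean ± SD; the groups of Sycp1 overlap and those of the other 5 genes do not.

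Promoter sequences are shown for the 4 members that changed and for Dazl and Mael, which were listed at 0, because CpG content is the feature through which these genes are usually described. They come from RefSeq (GRCm38.p6), whose promoter table matched 30 of the 36 members with 37 promoters. Tdrd6, Dppa3, Dppa5a, Tex15, Piwil2 and Tex11 were not matched. The stretches lie upstream of the annotated start. They are chrX:37754358-37754607 on the plus strand for Rhox5, chr6:122707239-122707488 plus for Nanog and chr5:107330944-107331158 plus for Brdt. For Taf7l the stretch is chrX:134476491-134476740 on the minus strand, for Dazl chr17:50293637-50293870 minus, and for Mael chr1:166238748-166238994 minus. Each is written 5′ to 3′ on the strand of the gene, and capitals mark CpG dinucleotides.
Rhox5: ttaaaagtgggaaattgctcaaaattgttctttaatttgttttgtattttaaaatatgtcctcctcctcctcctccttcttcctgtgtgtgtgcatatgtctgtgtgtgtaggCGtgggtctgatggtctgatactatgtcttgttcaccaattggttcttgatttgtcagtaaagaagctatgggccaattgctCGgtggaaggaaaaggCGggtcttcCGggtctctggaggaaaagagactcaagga
Nanog: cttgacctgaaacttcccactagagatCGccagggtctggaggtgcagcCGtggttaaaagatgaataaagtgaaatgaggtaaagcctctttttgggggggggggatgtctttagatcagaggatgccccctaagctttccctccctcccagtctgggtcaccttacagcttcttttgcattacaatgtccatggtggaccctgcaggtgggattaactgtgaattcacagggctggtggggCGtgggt
Brdt: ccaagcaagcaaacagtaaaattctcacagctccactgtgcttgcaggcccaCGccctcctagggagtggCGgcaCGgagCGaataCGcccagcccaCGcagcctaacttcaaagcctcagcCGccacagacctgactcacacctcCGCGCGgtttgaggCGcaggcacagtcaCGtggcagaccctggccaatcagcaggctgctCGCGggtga
Taf7l: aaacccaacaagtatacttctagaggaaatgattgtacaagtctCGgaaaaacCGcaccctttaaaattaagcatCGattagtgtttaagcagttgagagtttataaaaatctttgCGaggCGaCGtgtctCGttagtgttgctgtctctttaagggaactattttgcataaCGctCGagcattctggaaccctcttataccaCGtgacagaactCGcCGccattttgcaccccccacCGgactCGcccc
Dazl: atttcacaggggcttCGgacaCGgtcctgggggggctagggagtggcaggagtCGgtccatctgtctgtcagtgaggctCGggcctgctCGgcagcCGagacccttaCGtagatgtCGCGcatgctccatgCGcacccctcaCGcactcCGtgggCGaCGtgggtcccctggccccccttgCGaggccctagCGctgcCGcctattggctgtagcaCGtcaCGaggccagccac
Mael: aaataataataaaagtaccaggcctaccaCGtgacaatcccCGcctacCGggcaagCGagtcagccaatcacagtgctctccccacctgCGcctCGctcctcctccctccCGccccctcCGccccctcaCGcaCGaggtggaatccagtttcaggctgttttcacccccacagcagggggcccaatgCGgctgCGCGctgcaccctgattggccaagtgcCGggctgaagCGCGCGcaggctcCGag
The Rhox5 stretch holds 4 CpG and that of Nanog 3, against 14 each for Brdt and Taf7l, 19 for Dazl and 18 for Mael. The RefSeq start of Rhox5 lies 50.2 kb from the start in the GENCODE annotation used for the other coordinates, and from which start the reads come is not known.

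Over 300 bases per promoter, from 250 before to 50 after the start, the members had a median of 16 CpG, where all 32851 RefSeq promoters had a median of 7. At least 10 CpG were found in 30 of the 37 member promoters (81.1%) and in 43.5% of all promoters. Among the genes with a call, Brdt had 23 and Taf7l 17 CpG in the 300 bases, while Rhox5 had 5 and Nanog 4. At these RefSeq starts, the member that fell and the member with the largest rise both had fewer CpG than the median promoter. For Rhox5 this start lies 50.2 kb from the GENCODE start, so its count may not describe the promoter in use. By level, promoters of members listed at 0 had a median of 17 CpG, and those of members with reads under 0.1 FPKM 16. The 7 promoters of the 6 higher members had a median of 10. Nanog entered this last set with overlapping promoters of 4 CpG each, and Rhox5 entered it with 5 at its distant RefSeq start. The lower median of the set rests partly on these entries, and a fall of CpG content with level was not tested.

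**Figure D2:**
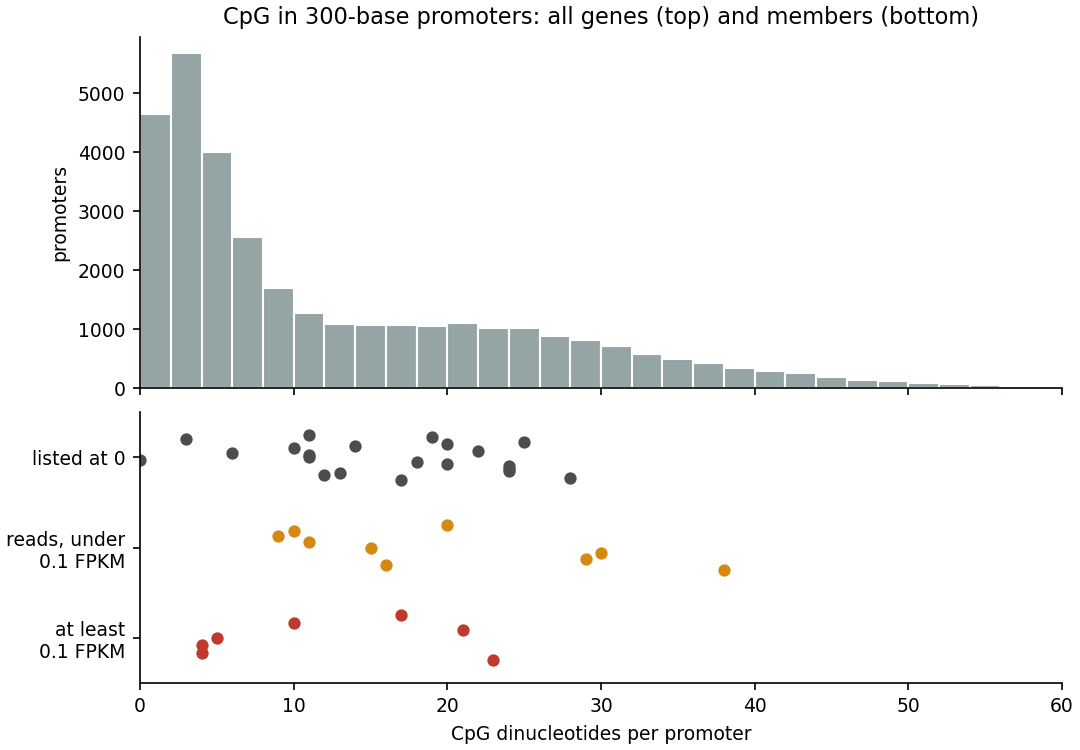
CpG dinucleotides per 300-base RefSeq promoter: the distribution over all 32851 promoters, and the 37 member promoters by the level of their gene. The members as a whole lie to the right of the median of all promoters (16 against 7). Rhox5 (5, at a RefSeq start 50.2 kb from its GENCODE start) and Nanog (4) lie at the low end.

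The E-box CACGTG, which reads the same on both strands, was present in 15 of 37 member promoters (40.5%) and in 7.2% of all promoters. The E2F-type motif TCCCGC, searched on both strands, was present in 10 (27.0%) and in 6562 of the 32851 promoters. Each motif holds a CpG, and the members were richer in CpG than all promoters (median 16 against 7). No share among promoters of like CpG content was taken, so these gaps are not specific to the motifs. A TCCCGC ending in the first base of a CACGTG would share that base with it. Both motifs occurred among members listed at 0. Among the members with a call only CACGTG was found, and TCCCGC in none. Brdt and Taf7l hold CACGTG, in the stretches printed above, Mael holds both motifs, and in Rhox5, Nanog and Dazl neither was found. A match describes the letters of the promoter and is not evidence of binding, and some members contribute more than 1 overlapping promoter.

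Rhox5 (ENSMUSG00000095180, X chromosome, 37804842 to 37808876 in GRCm38, plus strand) encodes a homeobox protein of the reproductive homeobox cluster. It is normally made in Sertoli cells, epididymis and placenta, and is known as a gene that DNA methylation keeps off in many somatic cells. In control replicates 1, 2 and 3 it reached 89.8, 84.4 and 90.3 FPKM (2304, 2477 and 2157 reads). In NNMT cells it was 1.89, 0.863 and 1.68 FPKM in the unnumbered library and replicates 2 and 3 (57, 23 and 46 reads). All control libraries were high and all NNMT libraries low, without overlap. The means were 88.2 ± 3.29 and 1.48 ± 0.542 FPKM, a 59.7-fold fall. The log2 difference was -5.87 (SE 0.221, limma adjusted p = 1.36e-07), and p was 0.1 in an exact permutation test (two-sided), the lowest value possible for 3 against 3 libraries. Only Gpr149 and Agtr2 fell by more on this scale (chosen after seeing their values).

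Rhox5 kept some signal in the NNMT libraries. In replicate 2, the lowest, 23 reads gave a 95% counting interval of 0.547 to 1.3 FPKM. This lay below the interval of the unnumbered library (1.43 to 2.45) and overlapped that of replicate 3 (1.23 to 2.24). In bulk RNA, fewer cells with Rhox5 and less Rhox5 RNA per cell cannot be told apart. The gene is X-linked, and X-linked genes had a median difference of -0.75 with quartiles of -1.04 and -0.40, so its fall was larger than the general shift of X. What the shift of X adds to it was not tested.

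The rest of the Rhox cluster was off. Of 29 other Rhox genes, 26 were listed at 0, none reached the filter, and only Rhox7a, Rhox2h and Rhox2d had any read. Several of these genes are near-identical copies, and the sources used here do not say how reads that map to more than 1 copy were counted. Within 200 kb of Rhox5, 13 of 15 annotated genes were listed at 0 and none was tested, so the fall of Rhox5 has no neighbouring gene to set it against. Markers of Sertoli cells, a normal source of Rhox5, moved both ways. Of 14, 5 were tested, with Clu, Gata4 and Amh higher and Inha lower. Of the same 14, 4 (Fshr, Gata1, Cldn11 and Aard) were at 0. The sum of the list was 36.6 to 40.1 FPKM in control and 48.6 to 56.7 FPKM in NNMT libraries. The part of such cells in the level of Rhox5 was not tested.

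Nanog (ENSMUSG00000012396, chromosome 6, 122707489 to 122714633, plus strand) encodes a homeodomain factor of the pluripotency network, active in the inner cell mass and in primordial germ cells. It was listed at 0, 0.0116 and 0.0143 FPKM in control replicates 1, 2 and 3, with 0, 1 and 1 reads. Its NNMT values were 0.508, 0.371 and 0.485 FPKM in the unnumbered library and replicates 2 and 3, with 45, 29 and 39 reads. Nearly all of its reads were thus in the NNMT libraries, and the groups did not overlap. With 2 control reads against 113, the ratio of read rates was 52.9, with a 95% counting interval from 14.3 to 442. The means were 0.00863 ± 0.00759 and 0.455 ± 0.0735 FPKM, a log2 difference of 2.35 (SE 0.245, limma adjusted p = 4.2e-05). Nanog passed the filter only through its NNMT level, so in that fit it had to differ. In limma with no filter the adjusted p was 9.43e-05. The exact permutation test gave its smallest p, 0.1.

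The level that Nanog reached was low. In NNMT cells it exceeded 14.9% of tested genes, whose median was 7.31 FPKM, and 125 genes rose by more. Markers of pluripotent stem cells did not appear with it. Of 8, 7 were at 0 in all libraries and the remaining one, Dppa4, had so few reads that the sum of the list was at most 0.0192 FPKM in control and 0.0359 FPKM in NNMT libraries. Among the other pluripotency members, Pou5f1 (the OCT4 gene), Zfp42 (REX1) and Dppa3 (STELLA) were listed at 0, and Dppa5a had a single read in NNMT replicate 3. Nanog has processed copies elsewhere in the mouse genome, and the sources used here do not say how reads shared with them were counted.

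Of 16 annotated genes within 200 kb of Nanog, 7 were tested. Of these, 4 rose and 1, Foxj2, fell (neighbours were named once their values were known). Among all tested genes 31.9% rose. The 4 that rose lie 105 to 178 kb away. The nearest tested genes, the pseudogenes Gm10224 (8.46 kb) and Gm10420 (10.6 kb), had no call (limma adjusted p = 0.131 and 0.581). The microfibril protein gene Mfap5, 178 kb away, rose 8.53-fold from 3.60 ± 0.429 to 30.7 ± 1.36 FPKM (log2 difference 3.06, limma adjusted p = 2.42e-08). The cytidine deaminase gene Apobec1, 105 kb away, rose 2.81-fold to 3.68 FPKM, and Necap1 rose by 0.49 on the log2 scale. The glucose transporter gene Slc2a3, 13.2 kb away, was too low to test. A shared cause of these rises was not tested.

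Taf7l (ENSMUSG00000009596, X chromosome, 134460118 to 134476490, minus strand) encodes a testis counterpart of the TFIID subunit TAF7. The control replicates 1, 2 and 3 had 0.122, 0.146 and 0.147 FPKM (8, 11 and 9 reads). The NNMT libraries had 0.233 (unnumbered), 0.483 (replicate 2) and 0.513 FPKM (replicate 3) (18, 33 and 36 reads). The NNMT libraries lay above the control libraries, with the unnumbered library closest to them. The means were 0.138 ± 0.0145 and 0.409 ± 0.154 FPKM, 2.96-fold higher (log2 difference 1.05, SE 0.274, limma adjusted p = 0.00915). The rise ran against its chromosome, where 16 of 457 tested genes rose (3.50%). Among the 119 X-linked genes under 1 FPKM on average, 8 rose (6.72%) and 40 fell. All 6 tested genes within 200 kb of Taf7l fell, by 0.81 to 1.38 on the log2 scale. They include Cenpi, Gla and Rpl36a (chosen after seeing their values). Of all tested X-linked genes 75.3% fell.

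**Figure D3:**
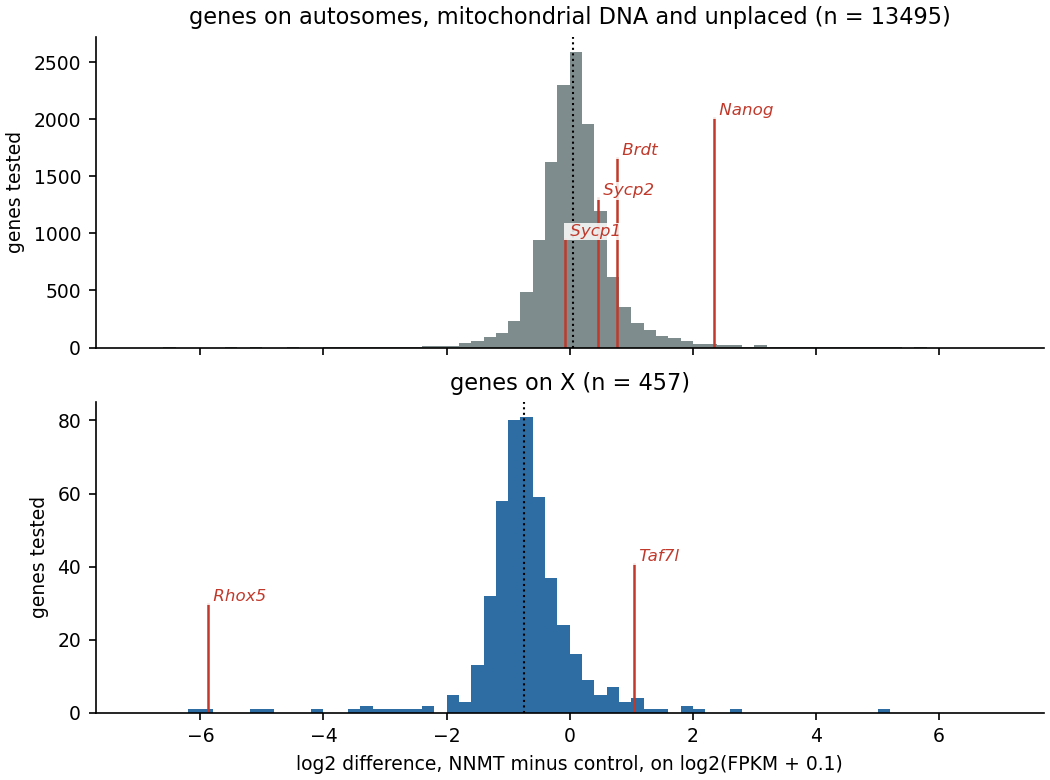
Distribution of log2 differences, NNMT minus Ctrl on log2(FPKM + 0.1), over 13495 tested genes outside X and Y and over 457 X-linked genes, with the tested members marked (line heights carry no value) and the median of each set dotted. Rhox5 (-5.87) lies far below the X median of -0.75, and Taf7l (1.05) lies above it.

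Brdt (ENSMUSG00000029279, chromosome 5, 107331159 to 107387058, plus strand) encodes a bromodomain protein that binds acetylated histones in spermatocytes and spermatids. Its levels in control replicates 1, 2 and 3 were 0.545, 0.525 and 0.532 FPKM (88, 97 and 80 reads). Levels in the NNMT libraries were 0.926 (unnumbered), 0.871 (replicate 2) and 1.16 FPKM (replicate 3) (176, 146 and 200 reads). The control libraries lay close together, and all 3 NNMT libraries lay above them. The means were 0.534 ± 0.00998 and 0.986 ± 0.153 FPKM, 1.85-fold higher (log2 difference 0.77, SE 0.153, limma adjusted p = 0.00212). Brdt was thus detected in control cells too, and in NNMT cells it exceeded 21.8% of tested genes. Its span overlaps the pseudogene Gm8152, and the strand rule of the counting is not known. Of 3 tested genes within 200 kb, 1 rose (Tgfbr3, by 0.37 on the log2 scale) and 2 had no call. Larger rises than that of Taf7l were found for 722 genes, and larger ones than that of Brdt for 1181.

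Sycp1 and Sycp2 encode parts of the synaptonemal complex, the former its transverse filament and the latter its lateral element. Sycp1 (chromosome 3, 102818499 to 102936100, minus strand) stood at 0.530, 0.972 and 0.744 FPKM in the control libraries (62, 130 and 81 reads). With the NNMT construct it was 0.596 (unnumbered), 0.667 (replicate 2) and 0.825 FPKM (replicate 3) (82, 81 and 103 reads). The groups overlapped, and the difference of -0.07 (SE 0.214, limma adjusted p = 0.801) was smaller than the spread of the libraries. Its direction turned without control replicate 2 (0.12) or without the unnumbered NNMT library (0.02).

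Sycp2 (chromosome 2, 178345293 to 178407685, minus strand) stood at 0.262, 0.162 and 0.193 FPKM in the control libraries (51, 36 and 35 reads). With the NNMT construct it was 0.315 (unnumbered), 0.297 (replicate 2) and 0.332 FPKM (replicate 3) (72, 60 and 69 reads). The groups did not overlap, and the ratio of the means was 1.53. The difference of 0.45 missed the threshold (SE 0.216, limma adjusted p = 0.101). It passed in limma without a mean-variance trend (adjusted p = 0.0261), which called 54% of tested genes, and in limma-voom on the recovered reads (log2 difference 0.59, adjusted p = 0.0346), which called 54% of 15837 genes. All 3 tested genes within 200 kb of Sycp2 rose, where 31.9% of all tested genes rose.

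The 12 members with reads under 0.1 FPKM had 1 to 57 reads each over the 6 libraries. Together they had 56 reads in control and 99 in NNMT libraries, with 7 members higher in NNMT by reads, 3 lower and 2 equal. Piwil2, an Argonaute protein that binds piRNAs, held the most, with 7, 6 and 3 reads in the control libraries and 19, 13 and 9 in the NNMT libraries. Its groups did not overlap (0.0193 to 0.0419 against 0.0504 to 0.0966 FPKM), and its group means differed 2.40-fold. Limma-voom, which could test 6 of the 12, called none (1 at an unadjusted p under 0.05), and the adjusted p of Piwil2 was 0.0607, the lowest of the 6. Limma with no filter, on all 12, also called none (1 at an unadjusted p under 0.05).

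Other low members differed by a handful of reads. The meiotic cohesin genes Stag3 and Smc1b had 3 and 0 reads in control and 12 and 4 in NNMT libraries, and Tex14, needed for intercellular bridges of germ cells, had 3 and 11. The lateral element gene Sycp3 went the other way, with 8 and 4 reads, as did the RNA helicase gene Ddx4, a germ cell marker also called Vasa, with 3 and 0. The tudor domain genes Tdrd9, Tdrd12 and Tdrd6, of the piRNA pathway, had 10 and 10, 8 and 5, and 2 and 2 reads, Hormad2 had 3 and 6, and Tex15 had 0 and 3. None of these differences was called.

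**Figure D4:**
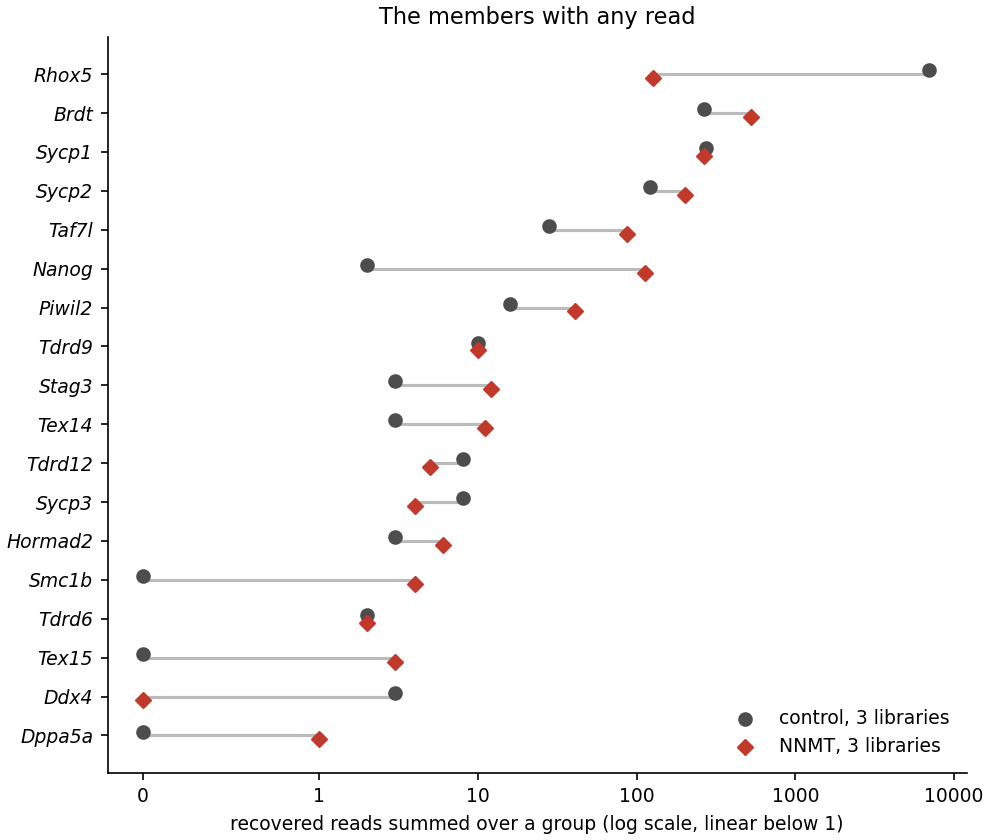
Reads recovered per member, summed over the 3 libraries of each group, on an axis that is linear near 0 and logarithmic above it. Rhox5 has 6938 control and 126 NNMT reads, Nanog 2 and 113, and 18 members are listed at 0 in both groups.

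The members listed at 0 in all libraries have roles at several steps of germ cell development. They include Dazl, an RNA-binding protein of germ cell specification, Stra8, the retinoic acid target at meiotic entry, and the meiotic genes Syce1, Hormad1 and Tex11. The piRNA genes Piwil1, Piwil4, Mael, Tdrd1, Mov10l1, Asz1 and Gtsf1 were at 0, as were Tex101, Slc25a31 and Dpep3, besides the 3 pluripotency genes named above. For these genes a floor of 3 reads per library corresponds to 0.0144 FPKM (Tdrd1) to 0.116 FPKM (Gtsf1), and lower levels could be missed in a single library. A value listed at 0 can also come from the counting rules.

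Further genes of the same pathways, on lists that share no gene with the 36, also moved in both directions. The calls of each list stand beside 31.9% of all tested genes called higher and 26.1% called lower. Among other meiotic genes, 8 of 24 in the table were tested, 3 rose and none fell in limma, also at an unadjusted p under 0.05 (median difference 0.18). Tex12, of the central element, had 2 reads in control and 25 in NNMT libraries (0.0278 and 0.366 FPKM, log2 difference 1.86, limma adjusted p = 0.00197). It passed the filter only through its NNMT level, so it had to differ. The MutS homologue gene Msh5 rose 1.76-fold to 1.22 ± 0.165 FPKM (adjusted p = 0.00206). The chaperone gene Hspa2 rose 1.26-fold with an adjusted p of 0.0298, and missed the threshold under quantile normalization (0.0530) and medians of ratios scaling (0.0595). Mlh3 had no call (difference -0.34, adjusted p = 0.0930), and it was called lower under quantile normalization (0.0266) and by limma-voom (0.0212).

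Of 10 tested piRNA and germ granule genes, 3 rose and 1 fell (median -0.13). Mov10, the somatic relative of Mov10l1, rose 1.33-fold and Tdrkh 1.26-fold, to 16.4 and 8.37 FPKM. Dnd1, an RNA-binding protein that protects germ cell transcripts, rose 1.47-fold to 0.720 ± 0.0465 FPKM, a call lost under quantile normalization (adjusted p = 0.147) and in limma-voom (0.0766). Mybl1, the A-MYB factor that drives piRNA precursor genes in spermatocytes, was 2.00-fold lower, from 1.81 ± 0.134 to 0.905 ± 0.262 FPKM (limma adjusted p = 0.00233).

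Of 20 other pluripotency genes, 11 were listed at 0 and 4 were tested. The 8 pluripotent stem cell markers above are among these 20, so 7 of the 11 zeros were already given. The Krüppel-like factor gene Klf2 rose 1.61-fold to 7.51 ± 1.06 FPKM, Klf4 was 1.17-fold lower at 17.8 ± 0.944 FPKM, and Tet1 and Dppa2 had no call. Among 32 further germline genes, listed as having CpG-rich promoters, 19 were listed at 0 and 2 were tested. The CpG of their promoters was not counted here. Dnmt3l, the cofactor of DNA methylation in germ cells, stood at 1.11, 1.09 and 1.56 FPKM in control libraries and 3.18, 3.49 and 3.49 FPKM in NNMT libraries, and rose 2.70-fold (limma adjusted p = 3.08e-05). Magea8, on X, had 54 reads in control and 3 in NNMT libraries and fell (log2 difference -1.83, limma adjusted p = 0.000593). It passed the filter only through its control level, so it too had to differ. Without a filter, and in limma-voom, 5 of this list were called, the other 3 being the X-linked Xlr3a and Xlr3c and Mageb3 on chromosome 2, all lower. Xlr3a had 12 control and 0 NNMT reads, Xlr3c 18 and 2, and Mageb3 13 and 1. These 3 reached the 10 reads asked by limma-voom only through their control reads, so in that fit they had to differ. The Xlr3 genes are near-identical copies, so their reads may be split between them. Of 14 late spermatid genes only Prm1 was tested, with no call (adjusted p = 0.125).

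**Figure D5:**
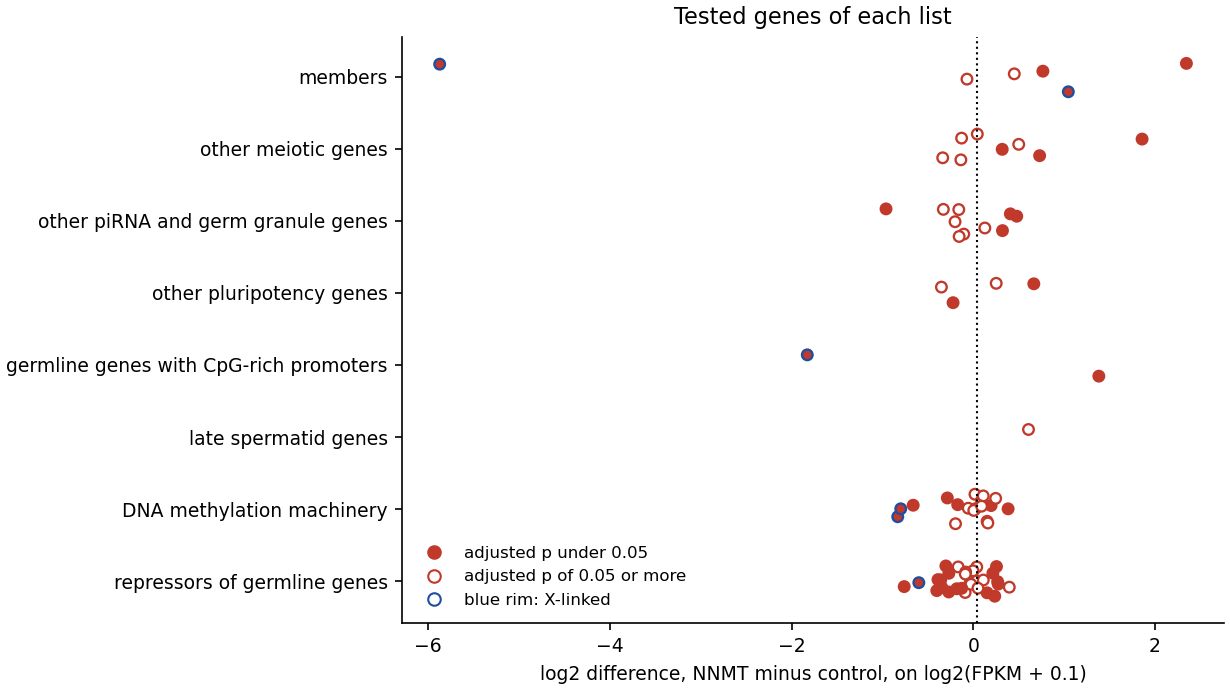
Log2 difference, NNMT minus Ctrl, of each tested gene by list, with filled points for an adjusted p under 0.05, open points for no call, a blue rim for X-linked genes and a dotted line at the median of all tested genes (0.04). Calls lie on both sides of 0 in the member list (median 0.61 over 6 genes) and in the lists of piRNA, pluripotency, CpG-rich germline, DNA methylation and repressor genes.

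RNA of the DNA methylation genes and repressors that are known to keep such genes off was found in both groups. Their proteins were not measured. All 18 genes of DNA methylation were tested, with 2 higher, 5 lower and 11 without a call (median 0.02). Of the 5 that fell, 2 are X-linked. With 7 of 18 called, the share was below the 58% among all tested genes. Dnmt1 stood at 55.0 ± 1.68 and 55.7 ± 1.28 FPKM (difference 0.02, limma adjusted p = 0.739), and Dnmt3a and Dnmt3b also had no call. Uhrf1, which directs DNMT1 to newly replicated DNA, fell 1.58-fold from 98.5 ± 1.95 to 62.4 ± 4.24 FPKM (adjusted p = 1.05e-05). The methyl-CpG reader gene Zbtb33, on X, fell 1.76-fold, and its relative Zbtb38 rose 1.31-fold. The genes Dnmt1, Dnmt3a and Dnmt3b are named here outside the rule for named genes.

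Of 29 tested repressors of germline genes, 6 rose, 11 fell and 12 had no call (median -0.08). With 17 of 29 called, the list was near the 58% called among all tested genes. The deacetylase gene Hdac1 fell 1.70-fold, from 82.1 ± 1.68 to 48.4 ± 0.285 FPKM (limma adjusted p = 8.2e-07). The H3K4 demethylase gene Kdm5c, on X, fell 1.52-fold, the KAP1 gene Trim28 1.32-fold to 132.8 ± 2.99 FPKM, and Zmym4 1.28-fold. Genes of PRC1.6 moved in both directions. Rybp and Wdr5 fell (differences -0.39 and -0.35), and Ring1, Yaf2 and Cbx1 rose (0.28, 0.24 and 0.22). Pcgf6, L3mbtl2, Mga, Max, E2f6, Tfdp1, Rnf2, Cbx3 and Hdac2 had no call. Limma-voom called Mga, Max and Hdac2 lower (adjusted p = 0.00392, 0.0376 and 0.0315). E2f6 was low, at 0.222 ± 0.0345 and 0.338 ± 0.132 FPKM. These PRC1.6 genes are named outside the rule. What these levels contribute to the member genes was not tested.

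Markers of germ cells did not form a common pattern either. Of 8 spermatogonial markers 4 were at 0 and 2 were tested. Id4, which fibroblasts can also express, rose from 1.66 ± 0.167 to 4.96 ± 0.383 FPKM, and Gfra1 fell from 0.971 ± 0.0355 to 0.648 ± 0.0534 FPKM. The sum of the list was 2.41 to 2.78 FPKM in control and 5.19 to 5.87 FPKM in NNMT libraries. Of the granulosa cell markers, 4 of 6 were at 0 and only Inhba was tested, and it fell. No endothelial or epithelial marker was high enough to be tested, and 2 of 5 leukocyte markers were tested, without a call. The part of other cell types in the member values was not tested further.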

How the data were processed

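The data are RNA-seq libraries of 3T3 cells, 3 with the control and 3 with the NNMT construct. CASAVA and STAR 2.5 and the build mm10 are named in the submitters' processing notes. The sources used here do not give the counter, the annotation release or the strandedness. In this series the authors deposited 1 table of values per gene and library with no unit in its header, and the deposited values were read as FPKM, because the values of each gene are multiples of 1 smallest step. Whole reads came out for 20528 of 20528 genes above 0 (100% of values, tolerance 0.01 of a read), and for 71.1% of these genes the step matched the longest GENCODE M21 transcript. Of 35275 identifiers, 34490 were paired with GENCODE M21 (GRCm38), and 41.8% of genes were listed at 0. Of the NNMT columns, 1 has no replicate number and is called the unnumbered library.

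Limma 3.58.1 under R 4.3.3 was run on log2(FPKM + 0.1) for genes averaging 0.1 FPKM or more (trend, robust, two-sided, Benjamini-Hochberg). The test was tested on simulated data. Of the planned tests, that for normalized values was the one used. Limma-voom on recovered reads (genes with at least 10 reads) called 8548 of 15837 genes. Ratios are given where each group had at least 10 reads. Counting intervals are exact, at 95%, and cover counting error only. The member list and all other lists were chosen with earlier results of these data known. By rule, every member that reached 0.1 FPKM is described, with up to 4 genes of the smallest adjusted p from each other list; not every such gene is reported here. Alternatives were other filters, pseudocounts, scalings, thresholds and moderation, leaving out each library, and a replicate block. Same-numbered libraries did not deviate together (r = 0.00737 and 0.0131). Iho1, Meiosin, Six6os1 and Spata22 were not found in the table by symbol and were not used.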

Additional observations from a re-analysis of the deposited data

How the results depend on the processing

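Over 20 alternatives Rhox5 stayed lower (-6.07 to -5.19, adjusted p 2.77e-12 to 0.00214) and Nnmt higher (1.2 to 1.49). Over 18 alternatives Nanog (0.53 to 5.02), Taf7l (0.30 to 1.43) and Brdt (0.37 to 0.86) stayed higher with adjusted p up to 0.00122, 0.0432 and 0.0138. Nanog met the FPKM filter, and the 10 reads asked by limma-voom, only through its NNMT libraries. Its result in those fits was therefore fixed in advance, and limma with no filter (adjusted p = 9.43e-05) is free of this. Brdt does not reach an absolute log2 difference of 1 (0.77). At that threshold 1290 genes were called, 783 higher and 507 lower, in place of 8095, 4453 and 3642. With a mean of at least 1 FPKM, with either pseudocount, 1 member was tested and called (Rhox5) in place of 4. Sycp1 changed direction without control replicate 2 (0.12) and without the unnumbered NNMT library (0.02), and ranged from -0.27 to 0.12 when 1 library was left out. Sycp2 passed without a trend (0.45) and in limma-voom (0.59). With 1 library left out, 7080 to 7979 genes were called, 3862 to 4359 higher and 3189 to 3675 lower, 4 members in each case, with Rhox5 at -6.07 to -5.55 and Nnmt at 1.2 to 1.46.

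Of calls, 55.0% were higher, 50.3% under quantile normalization, 49.1% with medians of ratios and 48.6% in limma-voom; the median of all genes moved by under 0.1. Called genes of the meiotic list were 3, against 1 with a mean of at least 1 FPKM or an absolute log2 difference of 1, and 5 in limma-voom. Those of the CpG-rich germline list were 2, against 1 with a mean of at least 1 FPKM and 5 with no filter or in limma-voom. The late spermatid list went from 0 to 1 with no filter or without NNMT replicate 3. The other pluripotency list went from 2 to 1 without a trend, at an adjusted p under 0.01, and without control replicate 2, control replicate 3 or NNMT replicate 3. At an absolute log2 difference of 1 the pluripotency, piRNA, DNA methylation and repressor lists had 0. The causes were not tested beyond what each filter or threshold removes. Depth limits the low members, most of which hold under 20 reads.

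The replicate block could be fitted on libraries 2 and 3 alone. It gave 4265 higher and 3305 lower genes (7570 called) where the same libraries without the block gave 4088 and 3147. With the block 4 members were called, Rhox5 at -6.06 (adjusted p = 0.0021), Nanog at 2.22, Taf7l at 1.28 and Brdt at 0.81. It ended none of these 4 calls, and the numbers are shared only as numbers.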
